A study of Homo sapiens with 32 samples.

Results

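Polysomal mRNA of MCF10A cells exposed to hypoxia together with PP242 was compared with polysomal mRNA of the same line in normoxia. MCF10A is an immortalised, non-tumourigenic human breast epithelial line. The comparison used 4 of the 32 libraries of the series, 2 for hypoxia + PP242 (HPP) and 2 for normoxia (N), which were picked by line, fraction and treatment as labelled. Genes classed as protein coding in the count tables were analysed, 19815 of 60554 genes, and 13124 of them had enough counts to be tested. The other libraries covered hypoxia alone (H) and PP242 in normoxia (NPP), total mRNA (T) beside polysomal mRNA (P), and the metastatic breast cancer line MDA-MB-231, with 2 biological replicates per group.

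HPP cells were kept at 0.5% O2 for 24 hours and received PP242, dissolved in DMSO, at 2.5 µM for 3 hours. H cells had the same hypoxia without PP242, NPP cells had PP242 without hypoxia, and N cells had neither. Per the study's methods, control cells received DMSO as vehicle. All MCF10A groups grew in medium with serum, epidermal growth factor, hydrocortisone, cholera toxin and insulin, so growth factor and insulin signalling were supplied in every group. The polysomal libraries hold mRNA from the heavier part of a sucrose gradient, where several ribosomes sit on each transcript.

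The kinase mTOR links nutrients and growth factors to protein synthesis, and PP242 blocks its ATP site in both mTOR complexes. Messengers with a 5′ terminal oligopyrimidine (TOP) tract, which begin with a C followed by further C or T, encode the ribosomal proteins and many translation factors, and are known to leave polysomes when mTOR complex 1 is inhibited. Low oxygen stabilises the HIF transcription factors, which bind the letters ACGTG near genes of glucose uptake, glycolysis, pH control and angiogenesis. A change in the polysomal pool can follow a change in the amount of an mRNA or in its loading with ribosomes, and the T libraries measure the first of these.

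Because most ribosomal protein mRNAs fell in HPP polysomes, the bases around the annotated start of some of them are shown, with 8 bases before the start and 22 from it, in the sense direction. Capitals mark a run of at least 5 C or T that opens with C within 5 bases of the start. Sequences and starts are from RefSeq on GRCh38.p14.
RPL11, chr1:23691771-23691800, plus strand: tggcccataaggCCCTCggccggaagctcc
RPL32, chr3:12841544-12841573, minus strand: gacccatcagCCCTTgcgcgccaccgtccc
RPS6, chr9:19380215-19380244, minus strand: agttggCCCTCTTTTCCgtggcgcctcgga
RPL22L1, chr3:170870174-170870203, minus strand: gtagCTTCCTCTCTgctctcgcggccgact
EEF1A1, chr6:73521011-73521040, minus strand: tgaacgttCTTTTTCgcaacgggtttgccg
TPT1, chr13:45341162-45341191, minus strand: gagtcggCCTTTTCCgcccgctcccccctc
EEF2, chr19:3985442-3985471, minus strand: tcagcgttCTCTTCCgccgtcgtcgccgcc
EIF4B, chr12:53006448-53006477, plus strand: atccgggtCTTTTgcgttctctttccctct
YBX1, chr1:42682410-42682439, plus strand: gtcccgccattctcgctagttcgatcggta
The first 6 of these mRNAs fell in HPP polysomes, EEF2 and EIF4B, which also hold such a run, did not pass the test, and YBX1, which has no run in this window, fell. Of mRNAs whose windows are not shown, EEF1B2 has no run and fell, RPS27 holds a run and did not pass, and RPLP0 holds a run and fell. Among large ribosomal subunit genes with a window, 31 of 38 (81.6%) held a run, against 22.6% of the 10523 tested genes with a window and 21.1% of all 35116 RefSeq windows. The share was 28.7% among the 1286 genes called lower that had a window. These matches describe the annotated start only and do not show which start was used in these cells.

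The N libraries held 35834206 and 46032327 counts and the HPP libraries 33642463 and 41079118. Levels are given below as CPM, counts scaled to a common library size, replicate 1 before replicate 2. They are relative to all polysomal mRNA in a library, so a loss of polysomes as a whole would not appear, and fewer cells with an mRNA and less of that mRNA per cell cannot be told apart. Replicates were correlated at a Pearson r of 0.966 in N and 0.969 in HPP across genes, which are not independent.

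Replicate 1 of N stood apart from replicate 2. Its TMM scaling factor was 0.808, against 1.10 in replicate 2, and ribosomal protein genes took 14.5% of its counts, against 8.996% in replicate 2. In HPP they took 2.75% of the counts in replicate 1 and 1.45% in replicate 2, so the 2 groups did not overlap. The median ribosomal protein mRNA differed between replicates by 1.14 (log2) in N, 1.00 in H, −0.04 in NPP and 0.98 in HPP, with replicate 1 minus replicate 2. What set these replicates apart was not tested. Where leaving out a library moved a count against N by more than 1.5 times, this is given or described below.

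**Figure D1:**
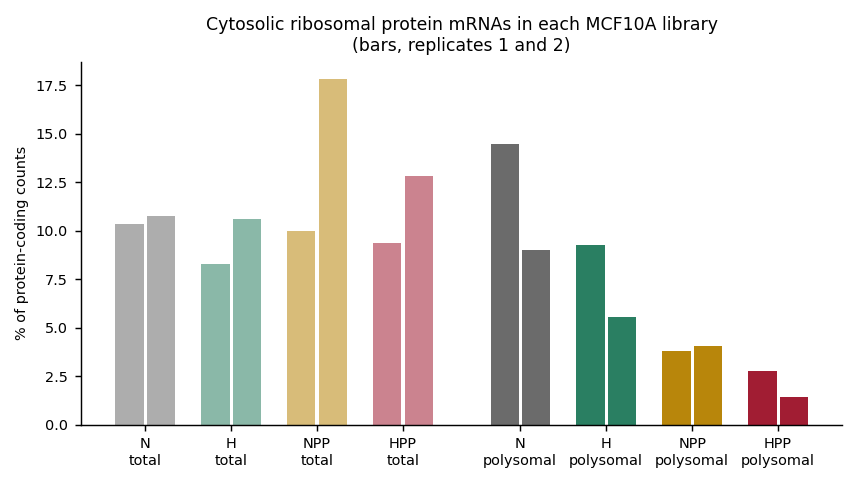
Share of counts from ribosomal protein genes (percent, vertical axis) in each of the 16 MCF10A libraries, by treatment, for total and polysomal mRNA, with 1 bar per library. Polysomal shares lie at 14.5% and 8.996% in N and at 2.75% and 1.45% in HPP, while total shares lie at 10.3% and 10.7% in N and at 9.35% and 12.8% in HPP.

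The labels were checked against marker genes. CA9, a carbonic anhydrase induced by low oxygen, had 23.6 and 12.4 CPM in N, 1283 and 1310.0 in HPP, 1356 and 919 in H, and 26.9 and 15.8 in NPP, so both hypoxic groups were apart from both normoxic groups. The 10 basal mammary markers summed to 3843 and 2928 CPM in N and to 10975 and 14323 in HPP, led by KRT14. Of the 10, 9 were tested. TP63, the marker not tested, was almost absent, with 0 and 1 counts in N and 3 and 10 in HPP. Luminal markers summed to between 6.52 and 8.24 CPM in the 4 libraries, led by GATA3, with 2 or 3 of the 6 at 0. Leukocyte markers summed to between 4.21 and 11.97 CPM, nearly all from CD14, with 3 of the 5 at 0 in each library, where PTPRC had 1, 1, 3 and 0 counts and LYZ 0, 0, 0 and 2 in N and then HPP.

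Fibroblast markers summed to 164 and 104.3 CPM in N and to 160 and 268 in HPP, led by DCN. The marker list of MDA-MB-231, led by VIM, summed to 6275 and 5374 CPM in N and to 6323 and 5500.1 in HPP. That was above the basal sum in both N libraries and below it in both HPP libraries. By the test described next, 10.2% of all tested genes were called higher and 11.9% lower. Basal markers were called higher for 7 of 9 tested members and fibroblast markers for 2 of 4. Luminal markers were called lower for 1 of 3 and MDA-MB-231 markers higher for 1 of 6, and the leukocyte marker tested did not pass. The luminal and MDA-MB-231 counts, of 1 gene each, are no result about those lists. The basal count was 4 without N replicate 2 and without HPP replicate 2. The fibroblast count was 1 without N replicate 1, N replicate 2 or HPP replicate 2, and the luminal and MDA-MB-231 counts were 0 without N replicate 1, HPP replicate 1 or HPP replicate 2. CDH1, the E-cadherin of epithelial junctions, was almost absent, with 0 and 3 counts in N and 3 and 16 in HPP, and GRHL2, an epithelial transcription factor, had 0 counts in all 4. Also low were KRT19, a keratin of simple epithelia, with 3 and 2 counts in N and 7 and 5 in HPP, ESRP1, an epithelial splicing factor, with 0 and 0 and then 0 and 1, and GJA1, a connexin, with 0 and 1 and then 0 and 18. These low values do not bear out the epithelial line that the labels name, while basal markers such as KRT14 were present. The identity of the line was not tested. The part of a change in cell makeup in the results below was not tested.

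HPP changed a large share of the polysomal transcriptome. At an adjusted p under 0.05 by edgeR's quasi-likelihood test, 2910 of 13124 genes were called (22.2%), 1342 higher (10.2%) and 1568 lower (11.9%). Of the genes called higher, 1180 changed at least 2-fold and 207 at least 8-fold, and of those called lower 1314 and 69 did. Of the lists described below with calls in both directions, mTOR complexes and regulators (21.7%), the ATF4 pathway (27.3%), ER chaperones (25%) and epithelial-mesenchymal genes (21.4%) had shares called near that of all genes, and their counts are no result about the list. The shares were 30% for cytosolic tRNA synthetases, 35% for HOX genes, 40% for the MYC network and 42.9% for clock genes. They were 44.4% for cyclins and inhibitors of G1, 68.75% for BMP, ID and DLX genes and 10.7% for mitosis genes. Sterol and fatty acid synthesis (24.1%) and lysosome and autophagy genes (22.2%), with calls in 1 direction, stand against 10.2% of all tested genes called higher. The median log2 fold change was −0.04 over all tested genes and the median size among called genes was 1.52. All 2910 called genes had N and HPP libraries that did not overlap in CPM, as did 61.8% of all tested genes. Without N replicate 1 the count was 1194, without HPP replicate 2 it was 1007, and without N replicate 2 and HPP replicate 1 it was 2214 and 2220. Of 160 genes picked by the naming rules and called against N, 69 lost the call without at least 1 library, and 8 lost it whichever of the 4 was left out, namely CTSB, EGLN1, FNIP1, HERPUD1, HOXC5, KIF20A, SNAI2 and STARD4. The genes called higher in all numbered 599 without N replicate 1, 528 without HPP replicate 2 and 828 without N replicate 2.

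**Figure D2:**
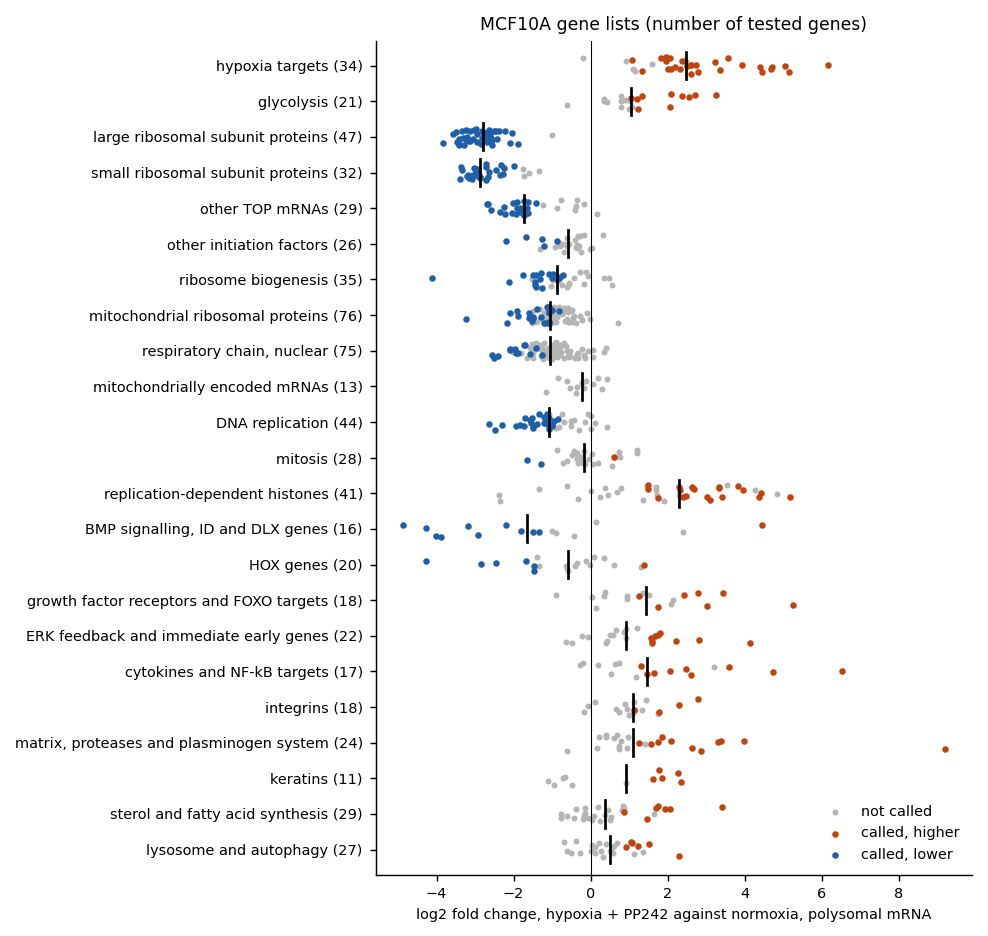
Log2 fold change (HPP against N, polysomal mRNA, horizontal axis) of each tested member of 23 gene lists, with orange for members called higher, blue for members called lower, grey for the rest and a bar at the list median. Ribosomal protein lists lie at medians of −2.81 and −2.87, and hypoxia targets at 2.48. SERPINB2, with 0 counts in N, is drawn at its fitted value.

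Of the 12 genes with the highest rises among those with a CPM of at least 1 in both HPP libraries, most were close to absent in normoxia. PTPRN, a protein of secretory granules, had 0 counts in both N libraries and 164 over both HPP libraries, at least 53.4-fold higher against a floor of 3 counts over the group. PRSS35 had 1 count over both N libraries and 40 and 578 in HPP, a ratio of 604 with a 95% counting interval of 107.99 to 23892. CASP14, a caspase of epidermal differentiation, also had 1 count in N, with a ratio of 134 (23.6 to 5326). Counting intervals cover counting error only. SLC38A5, an amino acid transporter, GCNT3, a mucin glycosyltransferase, PLA2G4D, a phospholipase, and SLC26A8, an anion transporter, had 2 or 3 counts in N and ratios of 62.9 (21.2 to 308), 60.3 (20.3 to 295), 48.9 (13.2 to 409) and 47.9 (12.9 to 401).

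Other genes of this set were measured in every N library. C10orf10, also called DEPP after its induction by progesterone, had 0.0698 and 0.140 CPM in N and 9.55 and 11.5 in HPP, a log2 fold change of 6.52 ± 0.52 (SE, adjusted p = 5.23e-05). TXNIP, which binds thioredoxin and restrains glucose uptake, had 43.2 and 70.7 CPM in N and 1414 and 2901 in HPP, a log2 fold change of 5.24 ± 0.44 (adjusted p = 6.86e-05). HES2, a basic helix-loop-helix repressor, rose from 0.244 and 0.180 to 8.08 and 12.3 CPM (5.59 ± 0.58, adjusted p = 0.000154). The HPP libraries of these genes were far above both N libraries and, for TXNIP, HPP replicate 2 was well above HPP replicate 1. IL24, a cytokine of the IL-10 family, showed a wider spread, at 2.47 and 22.4 CPM in HPP against 0.175 and 0.1002 in N (6.53 ± 1.26, adjusted p = 0.00432).

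Of the 12 deepest falls, ID3, SAMD11 and AEN are given in full. ID3, an inhibitor of basic helix-loop-helix factors, had 425 and 398 CPM in N and 15.5 and 12.4 in HPP, a log2 fold change of −4.88 ± 0.42 (adjusted p = 7.85e-05). SAMD11 went from 47.7 and 28.7 to 1.64 and 0.834 CPM (−4.95 ± 0.48, adjusted p = 0.000117). AEN, a nuclease induced by p53, went from 39.3 and 41.9 to 1.80 and 2.23 CPM (−4.33 ± 0.26, adjusted p = 2.06e-05). In each of these both HPP libraries were well below both N libraries, and the HPP values lay closer together for ID3 and AEN than for SAMD11.

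Among the remaining genes of that set were AUNIP, a partner of Aurora A at centrosomes, at −4.45 (log2 fold change), the transcriptional coactivator PPARGC1B at −4.29, the homeobox genes HOXC8 at −4.28 and DLX2 at −4.27, LYPD1 at −4.21, the signalling ligand WNT7B at −4.09, and SMAD6, an inhibitory SMAD of BMP signalling, at −4.01. Adjusted p ran from 3.06e-05 for SMAD6 to 0.0118 for LYPD1, and the LYPD1 call did not hold without N replicate 1 (0.0798), HPP replicate 1 (0.0505) or HPP replicate 2 (0.110). RPL22L1, a paralogue of RPL22, and RRS1, a ribosome assembly factor, complete the set and are described with their groups.

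Ribosomal protein mRNAs fell almost as a whole. Of 47 large subunit members 46 were called lower and 0 higher, with log2 fold changes from −3.84 to −1.01 and a median of −2.81, and of 32 small subunit members 28 were called lower, with a median of −2.87 and a range from −3.40 to −1.35. These counts stand against 11.9% of all tested genes called lower. The members not called were RPL41 (−1.01), RPS12 (−1.77), RPS21 (−1.61), RPS27 (−1.73) and RPS28 (−1.35), all named after their values were seen. The counts depended on single libraries, at 19 large and 13 small subunit members without N replicate 1 and 12 and 6 without HPP replicate 2, against 46 and 28 without N replicate 2 and 45 and 25 without HPP replicate 1. The medians stayed negative, at −2.05 and −2.11 without N replicate 1.

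RPL11, a large subunit protein that also binds MDM2, had 2826 and 1337 CPM in N and 424 and 216 in HPP. Both HPP values were below both N values, and replicate 1 was the higher in each group. Its log2 fold change was −2.70 ± 0.55 (adjusted p = 0.00563), with an adjusted p of 0.0596 without N replicate 1 and 0.0701 without HPP replicate 2. RPL32 had the lowest value of its list, from 2236 and 901 to 147 and 72.7 CPM (−3.84 ± 0.65, adjusted p = 0.00226), and its call held without any of the 4 libraries. RPS6, a substrate of the kinases below mTOR, went from 3579 and 1679 to 537 and 264 CPM (−2.71 ± 0.53, adjusted p = 0.00458).

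The other members named by rule were RPL26 (−3.58), RPL27A (−3.49) and RPL12 (−3.48) of the large subunit and RPS13 (−3.40), RPS18 (−3.37), RPS15A (−3.34) and RPS26 (−3.20) of the small one. RPL22L1 fell further than any member of either list, from 652 and 276 to 31.1 and 16.9 CPM (−4.27 ± 0.61, adjusted p = 0.000885). Ribosomal protein genes have many processed pseudogene copies, and how reads were split between a gene and its copies is uncertain.

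Of 29 other mRNAs known to carry a TOP tract, 21 were called lower and 0 higher, with a median of −1.72. The count was 7 both without N replicate 1 and without HPP replicate 2. EEF1A1, the elongation factor that brings aminoacyl-tRNA to the ribosome, had 12545 and 9885 CPM in N and 3581 and 1947 in HPP (log2 fold change −2.02 ± 0.47, adjusted p = 0.0107). GNB2L1, the ribosomal scaffold RACK1, fell by 2.69 (log2), EEF1B2, an exchange factor for EEF1A1, by 2.67, and TPT1 by 2.35 with 2593 and 1178 CPM in N and 539 and 200.4 in HPP. YBX1, an mRNA-binding cold shock protein, went from 1538 and 793 to 199.9 and 185 CPM (−2.60 ± 0.46, adjusted p = 0.00285). EEF2, the translocation factor, had −1.23 ± 0.52 (adjusted p = 0.116), and EIF4B, a helicase cofactor, had −0.18 ± 0.31 (adjusted p = 0.718) with 149 and 242 CPM in N and 208 and 138 in HPP, so its groups overlapped.

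Of 26 initiation factors outside the TOP group 5 were called lower (19.2%) and 0 higher. Over all tested genes 11.9% were called lower and 22.2% either way. These initiation factors had a median of −0.59 (−0.37 without N replicate 1). Their largest change was in EIF4E, the cap-binding protein, with 131 and 154 CPM in N and 36.1 and 26.5 in HPP (−2.19 ± 0.26, adjusted p = 0.000297). EIF3J fell by 1.69 (log2), the helicase EIF4A1 by 1.26 and EIF2S2, a subunit of EIF2, by 1.22. EIF3G, a subunit of EIF3, went from 356 and 177 to 91.5 and 80.9 CPM (−1.63 ± 0.49, adjusted p = 0.0356), a call that did not hold without N replicate 1 (0.325), HPP replicate 1 (0.103) or HPP replicate 2 (0.190). The count of 5 was 2 without N replicate 1 and 2 without HPP replicate 2.

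Ribosome biogenesis factors were called lower for 18 of 35 members and higher for 0, with a median of −0.87. RRS1 went from 96.9 and 61.2 to 4.39 and 4.76 CPM (−4.11 ± 0.30, adjusted p = 3.29e-05). NOP2, an rRNA methyltransferase, fell by 2.12 (log2), NIP7 by 1.75 and BOP1, a pre-60S factor, by 1.50. Without N replicate 1 the count was 8 and without HPP replicate 2 it was 6.

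Lists of mitochondrial translation and respiration encoded in the nucleus had medians below 0. Mitochondrial ribosomal proteins were called lower for 22 of 76 members (median −1.05, with 75 of 76 below 0), led by MRPL36 (−3.23), MRPL12 (−2.17), MRPL34 (−2.10) and MRPS15 (−1.92). Nuclear genes of the respiratory chain were called lower for 13 of 75 (17.3%), with a median of −1.07. Over all tested genes 11.9% were called lower and 22.2% either way. The respiratory calls were led by the ATP synthase subunit ATP5G2 (−2.57), UQCRB of complex III (−2.50), COX5A of complex IV (−2.40) and NDUFS6 of complex I (−2.09). The counts of both lists depended on single libraries. They fell to few or no calls without N replicate 1 or HPP replicate 2 and rose without N replicate 2. The respiratory count also fell without HPP replicate 1. DESeq2 called 32 mitochondrial ribosomal proteins and 28 respiratory genes lower. Without N replicate 1 the median was −0.38 for the respiratory list and −0.49 for mitochondrial ribosomal proteins. Mitochondrially encoded mRNAs had 0 of 13 called and a median of −0.23, which ran from −1.10 without HPP replicate 1 to 0.22 without HPP replicate 2. Cytosolic tRNA synthetases had 5 of 20 called lower and 1 higher, 30% in all, against 22.2% of all tested genes. YARS was at −1.47, FARSB at −1.27 and KARS at −1.14, and DARS was called higher at 1.09. The 5 lower calls were 1 without N replicate 1, 2 without HPP replicate 1 and 2 without HPP replicate 2, and the DARS call was lost without HPP replicate 2 (adjusted p = 0.0559).

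Hypoxia targets rose. Of 34 members 29 were called higher, against 10.2% of all tested genes, 0 were called lower, and the median log2 fold change was 2.48. Between 26 and 27 were called without each of the 4 libraries in turn. CA9 rose by 6.17 ± 0.49 (adjusted p = 5.02e-05). NDRG1, a stress-induced gene, went from 58.0 and 92.5 to 2086 and 3303 CPM (5.16 ± 0.41, adjusted p = 5.02e-05), PPFIA4, a liprin, from 0.733 and 1.26 to 42.2 and 24.5 CPM (5.04 ± 0.57, adjusted p = 0.00025), and EGLN3, a HIF prolyl hydroxylase, from 0.314 and 0.140 to 5.69 and 5.66 CPM (4.70 ± 0.50, adjusted p = 0.00018). The 5 members not called were PDK1 (1.16), DDIT4 (1.11), PFKFB3 (−0.20), WSB1 (1.60) and AK4 (0.92), named after their values were seen.

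Glycolytic enzymes were called higher for 10 of 21 members and lower for 0, with a median of 1.05. PGK1 went from 712 and 732 to 4210.2 and 5323 CPM (2.72 ± 0.29, adjusted p = 0.00018), so its HPP values were several times those of either N library. ALDOC rose by 3.26 (log2), ENO2 by 2.55, GBE1, the glycogen branching enzyme, by 2.37 and LDHA by 1.05 (adjusted p = 0.0445). GAPDH had 16851 and 7666 CPM in N and 7801 and 8192 in HPP, groups that overlapped (−0.62 ± 0.61, adjusted p = 0.504). Without N replicate 1 and without HPP replicate 2 the count of 10 was 5. HIF subunits and oxygen sensors had 2 of 10 called higher (20%), EGLN3 and EGLN1 (1.08). Over all tested genes 10.2% were called higher and 22.2% either way. EGLN1 was called in no fit that left out a library. HIF1A itself had 269 and 373 CPM in N and 408 and 575 in HPP (0.61 ± 0.46, adjusted p = 0.369).

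Windows with the letters ACGTG are shown for members of these lists. The letters were searched on both strands from 250 bases before to 50 after the RefSeq start, so CACGT marks a match on the other strand and CACGTG holds both. Capitals mark the match.
CA9, chr9:35673898-35673927, plus strand: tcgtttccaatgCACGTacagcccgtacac
PPFIA4, chr1:203026360-203026389, plus strand: cggcgctctcgtCACGTgcccggacccgag
LDHA, chr11:18394464-18394493, plus strand: cagcccgactcaCACGTgggttcccgcacg
PGK1, chrX:78104034-78104063, plus strand: gcggcgtgccggACGTGacaaacggaagcc
The matches begin 18, 119, 87 and 202 bases before the start of CA9, PPFIA4, LDHA and PGK1. A match was found for 9 of 21 glycolytic genes (42.9%), against 26.3% of tested genes with a window and 21.4% of all RefSeq windows. For hypoxia targets 27 of 34 members had a window, under the share of 80% needed, so no share is given.

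**Figure D3:**
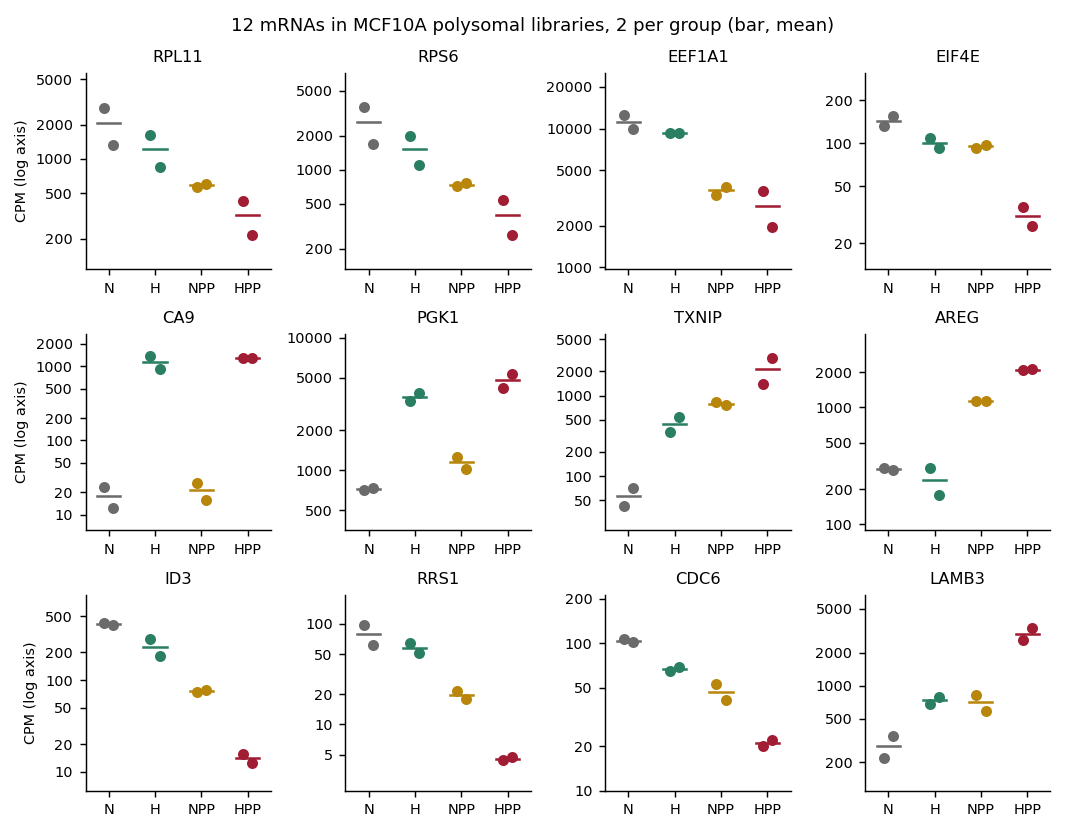
CPM (log axis) of 12 mRNAs in the 8 MCF10A polysomal libraries, by treatment, with 1 point per library and a bar at the mean. RPL11 is lowest in HPP and low in NPP, EEF1A1 is low in both, CA9 and PGK1 are high in H and HPP, AREG is high in NPP and HPP, and CDC6, EIF4E, ID3, RRS1 and LAMB3 are farthest from N in HPP.

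Genes of DNA replication were called lower for 28 of 44 members and higher for 0, with a median of −1.08. MCM10 fell by 2.64 (log2), POLE2, a polymerase epsilon subunit, by 2.49 and GINS2, part of the replicative helicase, by 1.94. CDC6, which loads that helicase at origins, had 105.98 and 101.3 CPM in N and 20.0 and 22.1 in HPP (−2.30 ± 0.21, adjusted p = 8.79e-05), with little spread in either group. The count was 16 without N replicate 1 and 13 without HPP replicate 2. Mitosis genes moved little, with 1 called higher, KIF20A (0.61), and 2 lower, MYBL2 (−1.64) and CDC20 (−1.29), of 28 and a median of −0.18 (−0.02 without N replicate 1), and all 3 calls were lost without N replicate 1 and without HPP replicate 2. The KIF20A call was also lost without either of the other libraries.

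Cyclins and inhibitors of G1 went both ways, with 2 called higher and 6 lower of 18 tested. CCNG2, a cyclin linked to growth arrest, rose by 3.43 (log2) and the inhibitor CDKN1C by 3.09, while E2F2, a factor driving S phase, fell by 2.87 and CCNE2 by 2.39. The 6 lower calls were 4 without N replicate 1, 3 without HPP replicate 1 and 2 without HPP replicate 2. In the MYC network MXI1 (3.22) and MNT (1.94), antagonists of MYC, and MYC itself were called higher and MLX (−1.32) lower, of 10. MYC had 174 and 205 CPM in N and 360.5 and 568 in HPP (1.29 ± 0.29, adjusted p = 0.00838), a call not kept without N replicate 1 (0.0840) or HPP replicate 2 (0.0952), when 1 higher and 0 lower calls were left in the list. Without HPP replicate 1 the lower calls were 2.

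Many replication-dependent histone mRNAs rose, although poly(A)-selected libraries capture few of them because their usual form lacks a poly(A) tail. Of 71 such genes 41 were tested, 19 were called higher and 0 lower, and the median was 2.29 (1.34 without HPP replicate 2). They took 0.0126% and 0.00922% of counts in N and 0.0694% and 0.151% in HPP. HIST1H2BG rose by 5.19 (log2), HIST1H4H by 4.44, HIST2H4A by 4.38 and HIST2H2BE by 3.95. HIST1H2AC, the most abundant, had 18.1 and 15.9 CPM in N and 159 and 325 in HPP (3.83 ± 0.62, adjusted p = 0.00172), and was named after its values were seen. Histone genes have near-identical copies, so single members are uncertain. The count was 11 without N replicate 1 and without HPP replicate 2, and 12 without N replicate 2.

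The lists of mTOR and growth factor signalling were examined next. MTOR itself had 23.8 and 36.1 CPM in N and 18.7 and 21.5 in HPP (−0.58 ± 0.37, adjusted p = 0.289). Of 23 tested members of the mTOR complexes and their regulators 5 were called (21.7%, against 22.2% of all tested genes), of which 3 were higher, FLCN (2.59), FNIP1 (2.51) and RRAGC (1.35), known for amino acid sensing at the lysosome, and 2 lower, among them PRR5 (−2.17), a part of mTOR complex 2. The FNIP1 call was lost whichever of the 4 libraries was left out, with adjusted p from 0.0755 to 0.206. The lower calls were 0 without N replicate 1 or HPP replicate 2 and 1 without N replicate 2. Growth factor receptors and FOXO targets were called higher for 7 of 18 and lower for 0, with a median of 1.45 (0.96 without HPP replicate 2), and included TXNIP, CCNG2, CITED2 (3.03), a transcriptional coregulator, and IRS2 (2.79), an adaptor of the insulin receptor.

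Feedback genes of ERK and immediate early genes were called higher for 9 of 22 and lower for 0, with a median of 0.93. AREG, a ligand of the EGF receptor, had 302 and 289 CPM in N and 2077 and 2107 in HPP (2.82 ± 0.32, adjusted p = 0.000264), so replicates were within a small fraction of each other. SPRY1, an inhibitor of receptor signalling, rose by 4.13 (log2) from 0 and 0.220 CPM in N, and the phosphatases DUSP5 and DUSP1 rose by 2.21 and 1.79. Cytokines and NF-kB targets were called higher for 9 of 17 tested and lower for 0, with a median of 1.48. Besides IL24 they included IL1A (4.75), IL1B (3.59, from 0.0349 and 0.0802 CPM in N) and PTGS2 (2.62), the inducible cyclooxygenase. The IL1B call was lost without N replicate 1 (adjusted p = 0.119), N replicate 2 (0.0666) or HPP replicate 2 (0.196), and the PTGS2 call without N replicate 1 (0.0531). Without N replicate 1 the cytokine count was 5.

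BMP signalling, ID and DLX genes mostly fell, with 10 called lower and 1 higher of 16 tested and a median of −1.65. Beside ID3, DLX2 and SMAD6, ID1 went from 1086 and 655 to 62.2 and 56.1 CPM (−3.88 ± 0.50, adjusted p = 0.000491). The exception was the ligand BMP2, which rose from 0.209 and 0.321 to 2.08 and 9.92 CPM (4.45 ± 0.87, adjusted p = 0.0047). Between 8 and 11 members were called lower without each library in turn. HOX genes were called lower for 6 of 20 tested and higher for 1, 35% in all, against 22.2% of all tested genes. The higher call was HOXA4 (1.38), named after its value was seen, and the higher count was 0 whichever of the 4 libraries was left out. HOXC13 fell by 2.84 (log2) and HOXC5 by 2.46, a call that was lost whichever of the 4 libraries was left out, and 3 members were called lower without HPP replicate 2. Clock genes were called higher for 5 of 14 and lower for 1, 42.9% in all, against 22.2% of all tested genes. RORA was at 4.17, BHLHE41 at 2.36, CIART at 2.26 and PER3 at −1.47. The 5 calls were 3 without N replicate 1, 3 without N replicate 2 and 2 without HPP replicate 2, and the PER3 call was lost without N replicate 1 (adjusted p = 0.0694) or HPP replicate 2 (0.104).

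Matrix proteins, proteases and the plasminogen system were called higher for 11 of 24 tested and lower for 0, with a median of 1.11. LAMB3, a chain of laminin 332 in the epithelial basement membrane, had 221 and 344 CPM in N and 2584 and 3341 in HPP (3.39 ± 0.33, adjusted p = 0.000123). SERPINB2, an inhibitor of plasminogen activators, had 0 counts in both N libraries and 35 and 130 in HPP, at least 53.7-fold higher. MMP10, a stromelysin, had 2 counts in N and a ratio of 17.6 (4.53 to 151), and TIMP3, an inhibitor of metalloproteinases, rose by 3.30 (log2). Without HPP replicate 2 the count was 7.

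Integrins were called higher for 4 of 18 tested, against 10.2% of all tested genes, and lower for 0, with a median of 1.11. They were ITGAX (2.78), ITGB4 (2.30), which binds laminin 332, ITGA5 (1.77), a fibronectin receptor chain, and ITGB2 (1.13). ITGB3, the beta chain of the vitronectin receptor, had 0.663 and 6.05 CPM in N and 7.88 and 15.0 in HPP (1.75 ± 0.87, adjusted p = 0.172), and its adjusted p was 0.0242 without N replicate 2, the higher of the N libraries. The integrin count was 2 without N replicate 1 and 1 without HPP replicate 2. Keratins were called higher for 5 of 11 tested and lower for 0, with a median of 0.91 (0.59 without HPP replicate 2). KRT17 was at 2.35, KRT14 at 2.28, KRT6A at 1.85 and KRT15 at 1.78, but 5 members had values below 0, the lowest −1.12. KRT81, the most abundant, did not rise, with 21966 and 11194 CPM in N and 10761 and 13037 in HPP. The count of keratins called higher was 1 both without N replicate 2 and without HPP replicate 2.

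Connexins, the subunits of gap junctions, had 2 of 5 tested called higher. GJB2 had 7.86 and 5.27 CPM in N and 50.6 in both HPP libraries (2.95 ± 0.28, adjusted p = 0.000103). Epithelial-mesenchymal genes had 2 called higher, FN1 (2.64) and CDH3 (1.31), and 1 lower, SNAI2 (−0.74), of 14 tested, with a median of 0.13 that ran from −0.03 without HPP replicate 1 to 0.41 without N replicate 2. The SNAI2 call held in none of the fits that left out a library, and the CDH3 call was lost without N replicate 2 (adjusted p = 0.137) or HPP replicate 2 (0.173), when 1 member was called higher. TTC30B had 1.68 and 2.34 CPM in N and 3.64 and 7.19 in HPP (1.42 ± 0.42, adjusted p = 0.0318), a call that did not hold without N replicate 1 (0.174), N replicate 2 (0.0635) or HPP replicate 2 (0.295).

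Sterol and fatty acid synthesis had 7 of 29 tested called higher and 0 lower, with a median of 0.37, which was −0.10 without HPP replicate 2 and 0.75 without HPP replicate 1. INSIG1, which holds back the sterol-regulated transcription factors in the ER, had 21.2 and 14.9 CPM in N and 43.3 and 94.4 in HPP (1.93 ± 0.42, adjusted p = 0.00776), and STARD4, a sterol transfer protein, rose by 1.76 (log2). The INSIG1 call did not hold without N replicate 2 (0.0571) or HPP replicate 2 (0.0947), and the STARD4 call was lost whichever of the 4 libraries was left out, with adjusted p from 0.0721 to 0.198. Lysosome and autophagy genes had 6 of 27 called higher and 0 lower, with GABARAPL1 at 2.30, NPC1 at 1.51, the autophagy receptor SQSTM1 at 1.22 and the protease CTSB at 1.09, which lost its call whichever of the 4 libraries was left out (adjusted p from 0.0525 to 0.106). Without HPP replicate 2 both counts were 1, without N replicate 1 both were 2, and without N replicate 2 they were 4 and 2.

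In the ATF4 pathway 6 of 22 members were called (27.3%, against 22.2% of all tested genes), 3 higher and 3 lower. VLDLR (4.42), PPP1R15A (3.51), which lets eIF2 be dephosphorylated, and DDIT3 (3.20), the stress factor CHOP, rose, whereas MTHFD2 (−1.98), a mitochondrial folate enzyme, fell together with PSAT1 and ATF5. ATF4 had 427 and 225 CPM in N and 399.9 and 165 in HPP (−0.21 ± 0.55, adjusted p = 0.824). ER chaperones and the unfolded protein response had 5 of 20 called (25%), with 3 higher, including HERPUD1 (1.15) and HSP90B1 (1.10), and 2 lower, SDF2L1 (−2.07) and XBP1 (−1.08). There were 0 higher calls in that list without HPP replicate 2 or N replicate 2 and 1 without N replicate 1, and 0 lower calls without N replicate 1 or HPP replicate 2 and 1 without HPP replicate 1. Of 9 iron handling genes tested FBXL5 (0.89) was called higher (11.1%, near the 10.2% of all tested genes), and of 6 metallothionein list members tested the zinc exporter SLC30A1 (1.80, adjusted p = 0.0495) was, and neither call held without N replicate 1 or HPP replicate 2, nor that of SLC30A1 without N replicate 2.

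Whether the polysomal change differed from that in total mRNA was tested as an interaction of fraction and treatment. It gave 0 calls among 13124 genes (0%) by edgeR, with 433 genes at an unadjusted p under 0.05, and 127 calls by DESeq2. With a replicate block within fraction edgeR gave 100 calls, all lower in P, among them 41 large and 22 small subunit ribosomal proteins. At that unadjusted threshold ribosomal protein mRNAs were lower in P than in T for 46 of 47 large and 29 of 32 small subunit members. Their median log2 fold changes in T were 0.36 and 0.35, with 0 called either way, and the median differences P minus T were −3.19 and −3.21. RPL11 had 1247 and 1198 CPM in T of N and 1250.2 and 1986 in T of HPP, and its difference was −3.11 (unadjusted p = 0.00141). By DESeq2 44 large and 24 small subunit members were called lower in P than in T. The T and P libraries of a treatment and replicate share a number in their titles, so they may come from 1 culture, and the tests above treat them as independent. A fit with that number as a block, in which P is set against T within a culture, also gave 0 calls by edgeR, with 294 genes at an unadjusted p under 0.05. It had 4 residual degrees of freedom and gave medians of −3.15 and −3.11 for large and small subunit members, with 45 and 27 lower in P at the unadjusted threshold.

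The other TOP mRNAs had a median change of 0.30 in T and a median difference of −1.96, with 24 of 29 unadjusted and 16 called by DESeq2. With the replicate block within fraction edgeR called 13 of 29 lower in P than in T. Respiratory chain genes had medians of 0.04 in T and −1.08 for the difference, and mitochondrial ribosomal proteins of −0.18 and −0.68, with 12 of 75 and 10 of 76 members lower at an unadjusted p under 0.05. These were 5 and 3 with the block on the title number, and DESeq2 called 3, UQCRB, ATP5G2 and COX5A, and 1, MRPL30, the last named after its value was seen. The replicate block within fraction called 3 respiratory genes and 0 mitochondrial ribosomal proteins lower in P. GAPDH rose by 2.27 (log2) in T and had −2.89 for the difference (unadjusted p = 0.0067), which did not pass after adjustment by edgeR (0.653). DESeq2 called it lower in P than in T (−2.98, adjusted p = 0.0254), as the only glycolytic gene of 21.

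For other groups the changes in P and T are given side by side, and no difference between them passed the test in the main edgeR fit. With the replicate block within fraction edgeR called 1 member of the ATF4 pathway list lower in P than in T. By DESeq2 MTHFD2 differed, with −1.55 for P minus T (adjusted p = 8.09e-10). EIF4E changed by −2.19 in P and −2.09 in T, RRS1 by −4.11 and −3.41, CDC6 by −2.30 and −2.10, CA9 by 6.17 and 6.20, and ID3 by −4.88 and −4.49. List medians in P and T were 2.48 and 2.27 for hypoxia targets, −0.87 and −0.98 for ribosome biogenesis, −1.08 and −0.92 for DNA replication, −1.65 and −1.70 for BMP, ID and DLX genes and 2.29 and 2.32 for histones.

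**Figure D4:**
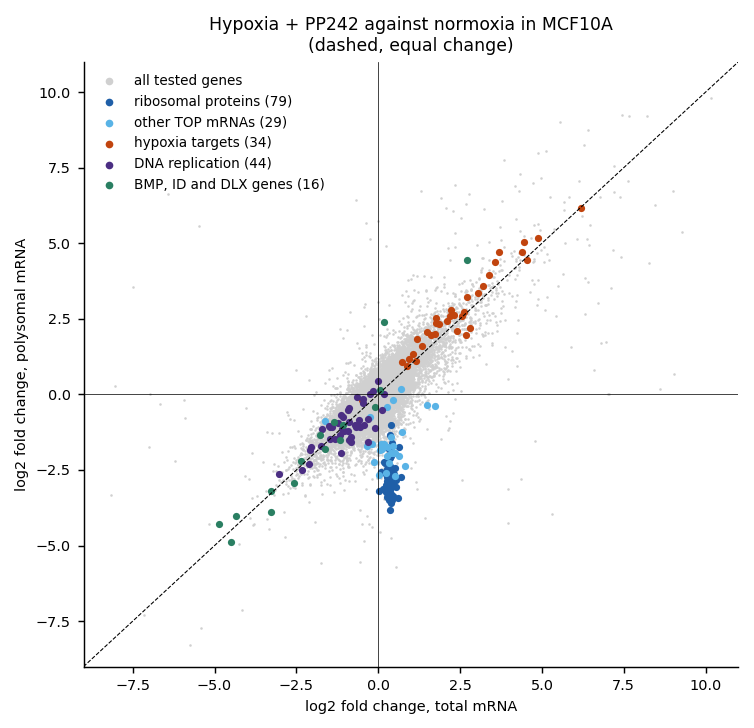
Log2 fold change (HPP against N) of each tested gene in total mRNA (horizontal axis) and in polysomal mRNA (vertical axis) of MCF10A, with gene groups in colour and a dashed line at equal change. Ribosomal protein mRNAs lie near 0 in total mRNA and near the list medians of −2.81 and −2.87 in polysomal mRNA, away from the line.

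To ask what PP242 added to hypoxia, HPP was compared with H in polysomal mRNA. In total 853 of 13124 genes were called (6.50%), 345 higher (2.63%) and 508 lower (3.87%). Other fits gave 38 calls with only the 4 libraries compared, 1589 by DESeq2 and 1951 with the replicate block within fraction. Leaving out a library reduced the count to 182 without H replicate 1, 303 without H replicate 2, 442 without HPP replicate 1 and 131 without HPP replicate 2. Ribosomal proteins were called lower for 27 of 47 large and 16 of 32 small subunit members (medians −2.20 and −2.13), and BMP, ID and DLX genes for 9 of 16 (median −1.63). ID2 had 96.4 and 67.3 CPM in H and 4.44 and 4.22 in HPP (−4.24 ± 0.38, adjusted p = 0.000282), and ID1 had 849.7 and 523 in H and 62.2 and 56.1 in HPP (−3.54 ± 0.49, adjusted p = 0.00307).

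ID3 (−4.06), HOXC8 (−3.87), RRS1 (−3.67) and AUNIP (−3.53) completed the 6 deepest falls against H. ERK feedback and immediate early genes were called higher for 8 of 22 and lower for 1, and cytokines for 5 of 17. CXCL8, the chemokine IL-8, had 0.901 and 0.559 CPM in H, 20.0 and 16.1 in HPP, 14.9 and 15.4 in NPP and 3.95 and 2.52 in N (HPP against H 4.64 ± 0.38, adjusted p = 0.000179). IL24 rose by 5.15 (log2), FAM46C by 4.67, NR4A1, an orphan nuclear receptor, by 3.69, FST, an activin antagonist, by 3.64 and the adaptor GRB7 by 3.61. Hypoxia targets had 1 of 34 called higher and 1 lower (median 0.12). These were SLC2A3, a glucose transporter (2.82), and EGLN3 (−1.86), the former named after its values were seen.

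To ask what hypoxia added to PP242, HPP was compared with NPP. In total 976 genes were called (7.44%), 496 higher (3.78%) and 480 lower (3.66%). Other fits gave 2246 calls with only the 4 libraries compared, 1686 by DESeq2 and 2388 with the replicate block within fraction. The count was 119 and 195 without NPP replicates 1 and 2, 476 without HPP replicate 1 and 177 without HPP replicate 2. Hypoxia targets were called higher for 30 of 34 (median 2.22), glycolytic enzymes for 7 of 21 and histones for 15 of 41, and genes of DNA replication were called lower for 22 of 44 (median −1.02). No large or small ribosomal protein passed (0 of 47 and 0 of 32), with medians of −0.98 and −0.96.

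PTPRN, CASP14 and PLA2G4D had ratios to NPP of 163 (28.9 to 6496), 137 (24.1 to 5433) and 99.7 (17.5 to 3976), and SYT7, a synaptotagmin, of 109.6 (19.3 to 4370), each from 1 count in NPP. PPFIA4 rose by 6.16 ± 0.61 (adjusted p = 0.000356) from 0.465 and 0.459 CPM in NPP to 42.2 and 24.5 in HPP, and PRSS35 was also in this set. The deepest falls against NPP were HOXC8 (−2.76), C3orf33 (−2.74), AUNIP (−2.70), FRAT1 (−2.68), a GSK3-binding protein, ID3 (−2.44) and BIK (−2.44), a BH3-only protein.

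The values of each treatment against N are given side by side, since the contrasts share the N libraries. Large ribosomal protein mRNAs had medians of −0.73 for H, −1.89 for NPP and −2.81 for HPP, and small ones −0.74, −1.82 and −2.87. Against N, 0 of 47 large and 0 of 32 small subunit members were called in H, and likewise in NPP. Hypoxia targets had 2.15, −0.11 and 2.48, DNA replication −0.73, −0.10 and −1.08, histones 0.88, −0.03 and 2.29, and BMP, ID and DLX genes −0.17, −1.91 and −1.65. TXNIP had 351 and 538 CPM in H and 827 and 763 in NPP, both between the N and HPP libraries. EIF4E had 108.6 and 92.0 CPM in H and 93.4 and 97.7 in NPP, against 131 and 154 in N and 36.1 and 26.5 in HPP. It was lower in HPP than in H (−1.68 ± 0.25, adjusted p = 0.00411) and than in NPP (−1.61 ± 0.25, adjusted p = 0.0039).

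The same treatment was compared between lines in a fit of all 32 libraries. The polysomal change differed for 515 of 14298 genes (3.60%), with 206 higher in MCF10A than in MDA-MB-231 (1.44%) and 309 lower (2.16%). The count was 254 without HPP replicate 2 of MCF10A, and 229, 277, 236 and 213 without N replicates 1 and 2 and HPP replicates 1 and 2 of MDA-MB-231. Ribosomal proteins showed 0 of 47 and 0 of 32 differences, with medians of −1.87 and −2.02 in MDA-MB-231. Hypoxia targets differed for 10 of 34, all higher in MCF10A, and had a median of 1.39 in MDA-MB-231. CA12, another carbonic anhydrase, named after its values were seen, had 11.8 and 23.1 CPM in N and 196 and 219.5 in HPP of MCF10A and 9.58, 6.38, 6.63 and 5.95 in the same libraries of MDA-MB-231 (difference 3.96 ± 0.49, adjusted p = 0.000213).

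BMP, ID and DLX genes differed for 8 of 17 genes tested in that fit, 7 lower and 1 higher in MCF10A, with a median change of 0.33 in MDA-MB-231. ID2 and DLX2 were close to absent from MDA-MB-231, with at most 1.60 and 0.231 CPM in its 4 libraries, so those differences rest on low counts there. TXNIP rose in MCF10A by more (difference 3.76 ± 0.45, adjusted p = 0.000143), from 153 and 169.7 CPM in N to 393 and 552 in HPP of MDA-MB-231. EIF4E had 173 and 176 CPM in N and 129.9 and 129 in HPP of MDA-MB-231, a difference between lines of −1.71 ± 0.27 (adjusted p = 0.000938). AREG differed by 2.55 ± 0.42 (adjusted p = 0.00134).

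**Figure D5:**
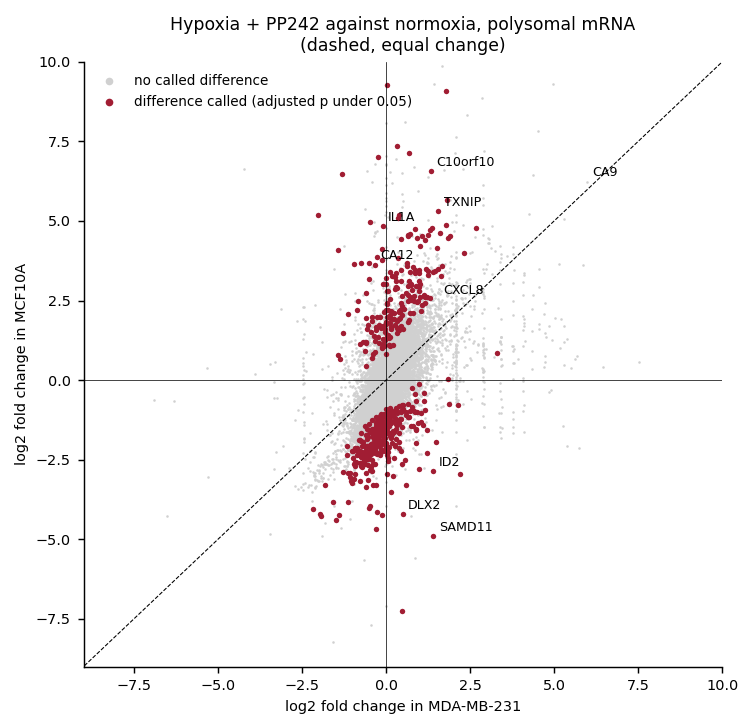
Log2 fold change (HPP against N, polysomal mRNA) of 13092 genes tested in both fits, in MDA-MB-231 (horizontal axis) and MCF10A (vertical axis), with the 512 of these genes whose difference was called in red and a dashed line at equal change. CA9 lies near the line, while ID2, DLX2 and SAMD11 are low in MCF10A and near or above 0 in MDA-MB-231.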

How the data were processed

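RNA-Seq libraries were made from poly(A)-selected total or polysomal RNA. Per the study's methods and the labels, the authors mapped reads with STAR and deposited expected counts per gene from RSEM, as whole numbers that needed no rounding. The methods name GRCh38 and the labels name GRCh37, so no coordinates were taken from the files. Each column was matched to a sample by its label, and 0 columns were left over.

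The analysis ran in edgeR 4.0.16 under R 4.3.3, with limma 3.58.1, and DESeq2 1.42.0 served as an alternative. The 16 MCF10A libraries were fitted in 8 groups with 8 residual degrees of freedom, after filterByExpr and TMM scaling, by the quasi-likelihood F test with Benjamini-Hochberg adjustment over all tested genes at 0.05. Errors are SE and the prior degrees of freedom were 3.65. The line comparison used all 32 libraries. Scripts were tested on simulated data. A two-sided permutation of 2 and 2 libraries cannot go below p = 0.333, and no such p is printed. Replicates are labelled "biological" and their titles carry a separate number for each treatment and replicate, shared by T and P. How they were raised is not stated, so p-values measure the spread between these libraries.

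Members and the 35 gene lists were chosen with earlier results of these data known. Genes were named by rule, as the 12 largest called rises and falls with CPM of at least 1 in both higher libraries and no overlap, up to 4 called members per list, 10 genes fixed by name, and the 6 largest each way in other comparisons. Other genes in the text were chosen after their values were seen. Some genes that the rule names are not reported here. Alternatives were DESeq2, RLE scaling, no filter beyond 1 read, replicate blocks, fits to the 4 or 8 polysomal libraries, adjusted p under 0.10, a log2 fold change of at least 1, all gene classes and leaving out each library. List counts without each library and by DESeq2, and a block on the title number for P against T, were added after the data were seen.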

Additional observations from a re-analysis of the deposited data

Results flagged for a closer look

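The change in polysomal mRNA under hypoxia + PP242 differed between MCF10A and MDA-MB-231 for 515 genes, by the test of the difference itself. Higher in MCF10A, as the difference of the log2 fold changes, were C10orf10 (5.24), IL1A (4.94), GSDMC (4.81), ANKFN1 (4.74), SPRY1 (4.22) and SPX (4.14). GSDMC, a gasdermin, had 2 counts over both N libraries of MCF10A and a ratio of 41.0 (11.01 to 344) there, so its difference depends on the prior count. SPRY1 had 29 and 23.5 CPM in N and 25.3 and 23.2 in HPP of MDA-MB-231, and 3.00 and 1.60 in HPP of MCF10A.

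Lower in MCF10A were SAMD11 (−6.30), DLX2 (−4.71), ID2 (−4.27), HOXC8 (−4.12), BEND3 (−3.91) and LYPD1 (−3.88). SAMD11 was at or under 0.236 CPM in all 4 MDA-MB-231 libraries, and HOXC8 at or under 0.577. BEND3, a chromatin protein, had 4.47 and 6.81 CPM in N and 0.638 and 0.474 in HPP of MCF10A, against 7.0 and 7.51 in N and 11.1 and 11 in HPP of MDA-MB-231.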

How the results depend on the processing

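With 2 libraries per group, counts of calls depended on single libraries and on the estimate of spread, while no named gene changed sign under an alternative that was run. Genes called higher against N were the smaller part of the calls in the main fit (1342 of 2910) and the larger part in some alternatives. They were 1681 of 3231 with only the 8 polysomal libraries and 1320 of 2558 with no filter beyond 1 read. By DESeq2 the calls were 1589 against H, 1686 against NPP, 929 between lines and 127 for P unlike T, and with an adjusted p under 0.10 they were 1411, 1700 and 856 for the first 3. Fitting only the 4 libraries compared gave 1642 against N (893 higher), 38 against H and 2246 against NPP. Leaving out a replicate gave 1007 to 2220 calls against N (528 to 1100 higher), 131 to 442 against H, 119 to 476 against NPP and 213 to 578 between lines.

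Replicate numbers were not taken as pairing the polysomal samples, since NPP did not follow the other groups. The correlation of replicate differences ran from −0.10 to 0.63 over the pairs of polysomal groups. It was 0.31 between N and HPP, 0.63 between N and H and 0.48 between H and HPP, but 0.06, −0.06 and −0.10 for NPP with N, H and HPP. In total mRNA all pairs of groups lay between 0.28 and 0.78. Between T and P of the same treatment, whose titles share a number, it was −0.10 in N, −0.25 in H, 0.02 in NPP and 0.21 in HPP, and a block on that number left 0 calls for P unlike T. A replicate block gave 3019 calls against N, of which 2805 were shared with the fit without it. A replicate block within fraction gave 4785 calls against N (2181 higher and 2604 lower of 13124 genes), 1951 against H, 2388 against NPP, 1320 between lines and 100 for P unlike T. In that fit some list counts moved by over 1.5 times. Lower calls were 56 of 76 for mitochondrial ribosomal proteins, 43 of 75 for the respiratory chain and 10 of 26 for other initiation factors. Higher calls were 9 of 18 for integrins, 10 of 27 for lysosome and autophagy and 12 of 18 for growth factor receptors and FOXO targets. The mTOR complexes had 7 higher and 5 lower of 23. ER chaperones had 5 of 20 higher, mitosis 4 of 28 higher and epithelial-mesenchymal genes 3 of 14 lower. These last 3 counts and the lower mTOR count lie near or below the shares of all genes in that fit and are no result about the lists. It also gave 1 lower call, against 0, in the lists of growth factor receptors, lysosome and autophagy, sterol synthesis, keratins, iron handling, mitochondrially encoded mRNAs and histones. With the plain replicate block epithelial-mesenchymal genes had 2 lower calls, keratins 1 lower and metallothioneins 0 higher. By DESeq2 the higher calls were 6 for mTOR complexes, 5 for the ATF4 pathway, 5 for ER chaperones and 2 for HOX genes, and sterol synthesis had 1 lower call. Over all alternatives, named genes called against N kept the call in 1717 values and lost it in 203, and those not called gained it in 2. Of 35 list medians 15 moved by more than the spread between replicates without N replicate 1, 12 without N replicate 2, 8 without HPP replicate 1 and 10 without HPP replicate 2. The cause of these shifts was not tested. Genes with few counts in N have ratios known only within wide intervals.

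Besides the genes that lost the call against N whichever library was left out, it was lost without either N replicate 1 or HPP replicate 2 for ATP5G2, BOP1, COX5A, EIF2S2, FBXL5, FRAT1, GINS2, GNB2L1, ITGAX, MLX, MNT, MRPL12, MYBL2, MYC, NDUFS6, PER3, PRR5, RPL11, RPS18, SDF2L1 and TPT1. It was also lost without N replicate 1, HPP replicate 1 or HPP replicate 2 for BIK, CDC20, EIF3G, EIF4A1, KARS, LYPD1, MRPL34, MRPS15 and XBP1. It was also lost without N replicate 1, N replicate 2 or HPP replicate 2 for FST, HSP90B1, IL1B, ITGB2, KRT15, MMP10, SLC30A1, SQSTM1 and TTC30B. Leaving out HPP replicate 2, and no other library, ended the call of BHLHE41, DARS, ITGA5, NPC1, RPL12, RPS15A, RPS26 and UQCRB. It was also lost without either N replicate 2 or HPP replicate 2 for CDH3, INSIG1, KRT17, KRT6A and PRSS35. Only N replicate 1 did so for FARSB, PTGS2 and SYT7, either HPP library for CCNE2, and only N replicate 2 for SLC26A8.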

Other observations

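Non-coding and pseudogene transcripts were left out of the comparisons above and were examined in a fit of all gene classes. Of 869 long intergenic non-coding RNAs tested 94 were called higher and 13 lower in HPP polysomes, and of 1163 antisense RNAs 65 and 26, against 1156 and 1567 of 13137 protein-coding genes in that fit. LINC00324 went from 1.14 and 0.290 to 15.6 and 10.2 CPM (4.22 ± 0.61, adjusted p = 0.00113) and LINC00482 from 0.0358 and 0.124 to 1.80 and 1.95 CPM (4.38 ± 0.54, adjusted p = 0.000463). BCYRN1, a primate brain cytoplasmic RNA, fell by 2.52 (log2). The counting is not stated to use strand, so antisense transcripts cannot be told apart from the genes they overlap.

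Processed pseudogenes lay lower, with 4 called higher and 139 lower of 553 tested. Of 82 with a symbol of a ribosomal protein gene 55 were called lower and 0 higher. How reads were split between these copies and their near-identical parent genes is uncertain.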
